A study of Bos taurus with 18 samples.

Results

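The m6A peaks on circular RNAs (circRNAs) of MAC-T cells stimulated with *E. coli* were set against those of MAC-T cells stimulated with *S. aureus*. MAC-T cells are bovine mammary epithelium kept as an immortalized line, and both bacteria are common causes of bovine mastitis. For either bacterium, 200000 cells per well were grown for 12 h and then received heat-inactivated bacteria at a multiplicity of infection (MOI) of 10 for 24 h. A control group had no bacteria. Each of the 3 groups had 3 replicate wells, and from each of the 9 wells input RNA and immunoprecipitated (IP) RNA were sequenced as separate libraries, 18 in all. The wells are replicates of 1 line, so p-values measure only the spread between wells, which may be technical. The peaks of the 6 IP libraries of both bacteria were joined into merged peaks wherever they overlapped by at least 1 base in the same orientation. This gave 1031 merged peaks from 2239 peaks, out of 1694 merged peaks from the 5966 peaks of all 9 IP libraries. The 1031 merged peaks lay on 739 circRNAs of 626 host genes.

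N6-methyladenosine (m6A) is a methyl mark on adenosines inside RNA. A writer complex around METTL3 and METTL14 sets it, the demethylases FTO and ALKBH5 remove it, and readers such as the YTH proteins bind it and steer the splicing, export, translation or decay of the RNA. A circRNA is a ring made when a downstream splice site joins an upstream one, and m6A on such rings has been linked in human cells to their translation, their decay and the way innate sensors treat them. In m6A sequencing of immunoprecipitated RNA, an antibody pulls down RNA fragments with the mark, and a peak is a place where the IP library has more reads than the input. The fold enrichment of a peak is that excess as a ratio. A place without a called peak may still be methylated, so the counts here are counts of calls.

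The *E. coli* wells held many more called peaks than the *S. aureus* wells. The *E. coli* wells had 653, 857 and 645 peaks, against 29, 27 and 28 peaks in the *S. aureus* wells. The lowest *E. coli* well lay far above the highest *S. aureus* well, and the means of 718 ± 120.2 and 28 ± 1 (SD, n = 3 each) differed 25.7-fold. The exact two-sided permutation test gave p = 0.1, the smallest value that 3 against 3 wells allow, and 0.13 after Benjamini-Hochberg adjustment over the 13 measures tested per well. The peaks of the *E. coli* wells lay on 503, 635 and 506 circRNAs, against 27, 24 and 26 circRNAs in the *S. aureus* wells (exact p = 0.1, adjusted p = 0.13). They belonged to 445, 550 and 450 host genes in the *E. coli* wells, against 24, 23 and 24 in the *S. aureus* wells (exact p = 0.1, adjusted p = 0.13). The control wells had 1138 to 1358 peaks.

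Several features of the peak tables moved with this difference, and their part in it was not tested. The peaks carry serial numbers that run along the genome of each library, and the highest number on a listed peak was 184448, 207457 and 210596 in the *E. coli* wells, against 217, 212 and 219 in the *S. aureus* wells. In the control wells it was 121084 to 133369. The listed peaks made up 0.306 to 0.413% of that number in the *E. coli* libraries, against 12.7 to 13.4% in the *S. aureus* libraries. The gap between the groups was thus far larger in the serial numbers than in the listed peaks. Whether peaks of the *S. aureus* libraries were called with the same settings and inputs is not given in the sources used here, so the 25.7-fold difference cannot be told apart from a difference in calling. The peak score, 10 times the negative log10 of the p-value with a ceiling near 3100, had a median of 163 to 192 in the *E. coli* wells, against 1349 to 1798 in the *S. aureus* wells. The false discovery rate was ordered with the score in both groups (Spearman's rho 0.99 to 1.00 across the peaks of a well) and against it in the control wells (rho -0.998 to -0.986). The input libraries had 919, 962 and 909 junction reads, reads across the join of a circle, in the *E. coli* wells and 384, 361 and 402 in the *S. aureus* wells. That is a 2.43-fold difference, and per circRNA with a junction read the *E. coli* wells still had 1.28 to 1.59 peaks, against 0.112 to 0.128 in the *S. aureus* wells.

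**Figure D1:**
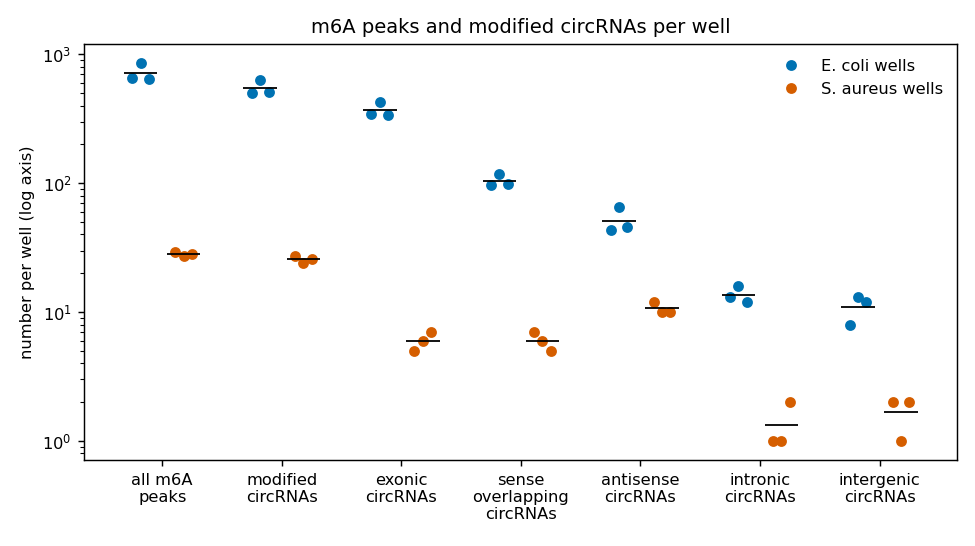
Number of m6A peaks, of modified circRNAs and of modified circRNAs of each source class per well, on a log axis. Points are wells (*E. coli* left, *S. aureus* right) and bars are means. The groups do not overlap in any column, and the gap is narrowest for antisense circRNAs (4.81-fold) and widest for exonic ones (61.3-fold).

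The presence of a peak was nearly always in favour of *E. coli*. Of the 1031 merged peaks, 440 (42.7%) were called in all 3 *E. coli* wells and in no *S. aureus* well. The reverse, all 3 *S. aureus* wells and no *E. coli* well, held for 3 merged peaks (0.291%). In all, 1018 merged peaks were called in at least 1 *E. coli* well and 36 (3.49%) in at least 1 *S. aureus* well. They shared 23 merged peaks (2.23%), which are 2.26% of those of the *E. coli* wells and 63.9% of those of the *S. aureus* wells. Another 332 merged peaks were called in 1 *E. coli* well alone and 223 in 2 *E. coli* wells alone. Within a group, 85.3 ± 8.55% of the peaks of an *E. coli* well and 88.1 ± 1.67% of those of an *S. aureus* well overlapped a peak of another well of the group (SD, n = 3 each), and the ranges overlapped (exact p = 0.8). These rates ran from 75.6 to 91.8% in the *E. coli* wells and from 86.2 to 89.3% in the *S. aureus* wells. With 3 wells a group the test cannot show that they are alike. The part of the number of calls per well in these rates was not tested.

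At the level of whole circRNAs the picture was the same. Of the 739 circRNAs with a peak, 728 had one in an *E. coli* well and 33 in an *S. aureus* well, and 22 had one in both groups. A peak in all 3 *E. coli* wells and no *S. aureus* well was found on 370 circRNAs, and the reverse on 2. Counted by host gene over all its circRNAs, 338 genes were of the first kind and 2 of the reverse. The 370 circRNAs took 9.36 to 9.79% of the junction reads of the *E. coli* input libraries (88 to 90 reads) and 10.4 to 11.4% of those of the *S. aureus* input libraries (40 to 43 reads). The reads were fewer in the *S. aureus* inputs, as were all junction reads there, and the part of circRNA abundance in the missing calls was not tested. No junction read in any of the 6 input libraries fell on the circRNA of 220 of the 440 merged peaks (50%). The share over all merged peaks was about the same, 514 of 1031 (49.9%).

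Most of the peaks seen only in *E. coli* wells were also seen without bacteria. Of the 440 merged peaks called in all 3 *E. coli* wells and no *S. aureus* well, 437 (99.3%) overlapped a peak of a control well and 419 (95.2%) overlapped peaks of all 3 control wells. Over all 1031 merged peaks these counts were 938 (91.0%) and 740 (71.8%). For the 555 merged peaks called in 1 or 2 *E. coli* wells and no *S. aureus* well they were 483 (87.0%) and 303 (54.6%). In all, 75 merged peaks called in *E. coli* wells alone had no control peak. The 3 of the 440 without a control peak lay on IGSF9B, RUNX2 and TTK. IGSF9B, an immunoglobulin-type adhesion protein, had fold enrichments of 80.06, 56.20 and 61.02 on an intronic circRNA. RUNX2, a transcription factor of bone that also acts in mammary epithelium, had 49.40, 43.08 and 43.37 on an exonic circRNA. TTK, a kinase of the spindle checkpoint, had 38.33, 33.22 and 50.18 on a sense overlapping circRNA.

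The 12 strongest of the peaks called in all 3 *E. coli* wells and no *S. aureus* well lay on 10 host genes, and MAP4K4 and ARID1A held 2 each. MAP4K4, a kinase upstream of JNK, carried the strongest of them on an exonic circRNA of 2489 nt (chromosome 11, 6597090 to 6597251, plus strand, bosTau9), with fold enrichments of 195.19, 344.45 and 278.87. A second peak on the same circRNA had 108.51, 185.09 and 242.38. ARID1A, a subunit of the BAF chromatin remodelling complex, had 171.09, 323.20 and 185.41 at chromosome 2, 126450274 to 126450726, minus strand. Its second peak, on the same circRNA of 783 nt, had 127.26, 120.86 and 159.53. The well with the highest value differed between these peaks.

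DST, a cytolinker that ties intermediate filaments to hemidesmosomes, had a peak at 154.47, 127.20 and 187.28. VGLL3, a cofactor of the TEAD transcription factors, had 100.50, 140.97 and 150.00. UPF2, a core factor of nonsense-mediated decay, had 98.25, 151.50 and 129.10. These genes act in unrelated processes. ITSN1, a scaffold of endocytosis, had 137.12, 63.18 and 169.37. ST5, an activator of Rab GTPases, had 65.00, 128.87 and 197.27. UBP1, a transcription factor of the CP2 family, had 161.50, 90.74 and 134.42. Values of a single peak thus varied widely between *E. coli* wells. CFDP2 had 60.19, 130 and 215.00 on a sense overlapping circRNA. HIVEP3, a zinc finger transcription factor, had 50.32, 92.75 and 247.64 on a short antisense circRNA of 198 nt, the strongest antisense peak of either group. METAP2, which removes the first methionine of new proteins, had the strongest intronic peak, at 109.14, 95.26 and 133.75. None of these places had a peak in an *S. aureus* well, and all had one in each control well.

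Some host genes carried several such peaks. ATRX, a chromatin remodeller, had 5, on exonic and sense overlapping circRNAs with fold enrichments of 17.17 to 109.92. DST had 5 on 1 circRNA of 5745 nt, with fold enrichments of 20.43 to 187.28. HDLBP, the RNA-binding protein vigilin, had 5 on 1 circRNA of 2268 nt, all weak at 13.81 to 35.13. ITSN1 had 5 as well, at 20.58 to 169.37. ERC1, a scaffold of vesicle docking sites, had 4 at 13.18 to 74.86. SMARCC1, another BAF subunit, had 4 at 14.69 to 103.67. The mean number of peaks per modified circRNA was 1.31 ± 0.038 in the *E. coli* wells and 1.09 ± 0.029 in the *S. aureus* wells (SD, n = 3 each, exact p = 0.1, adjusted p = 0.13). CircRNAs with more than 1 peak made up 20.4 ± 1.59% of those modified in *E. coli* wells and 6.53 ± 2.37% in *S. aureus* wells. This difference did not hold over the 27 peaks of highest score of every well, an alternative described below. There the share was 3.85, 0 and 8% in the *E. coli* wells, against 8, 8.33 and 4% in the *S. aureus* wells.

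The modified circRNAs of the groups came from different source classes. Exonic circRNAs, built from exons of their host gene, made up 68.2, 66.6 and 66.8% of the modified circRNAs of the *E. coli* wells, against 18.5, 25 and 26.9% in the *S. aureus* wells. Antisense circRNAs, which lie on the strand opposite to their host gene, made up 8.55, 10.2 and 9.09% in the *E. coli* wells, against 44.4, 41.7 and 38.5% in the *S. aureus* wells. The groups overlapped in neither class, and for each the exact p was 0.1 (0.125 adjusted over the 5 classes, 0.13 over the 13 measures). Sense overlapping circRNAs, which overlap a gene on its own strand without being classed as exonic or intronic, made up 18.6 to 19.4% in the *E. coli* wells and 19.2 to 25.9% in the *S. aureus* wells, and the ranges overlapped (exact p = 0.2, adjusted p = 0.217). Intronic circRNAs made up 2.37 to 2.58% in the *E. coli* wells and 3.70 to 7.69% in the *S. aureus* wells. Intergenic circRNAs made up 1.59 to 2.37% in the *E. coli* wells and 4.17 to 7.69% in the *S. aureus* wells. In the *S. aureus* wells these last shares stand for 1 or 2 circRNAs per well. The control wells had 67.7 to 68.8% exonic and 7.74 to 8.96% antisense circRNAs.

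**Figure D2:**
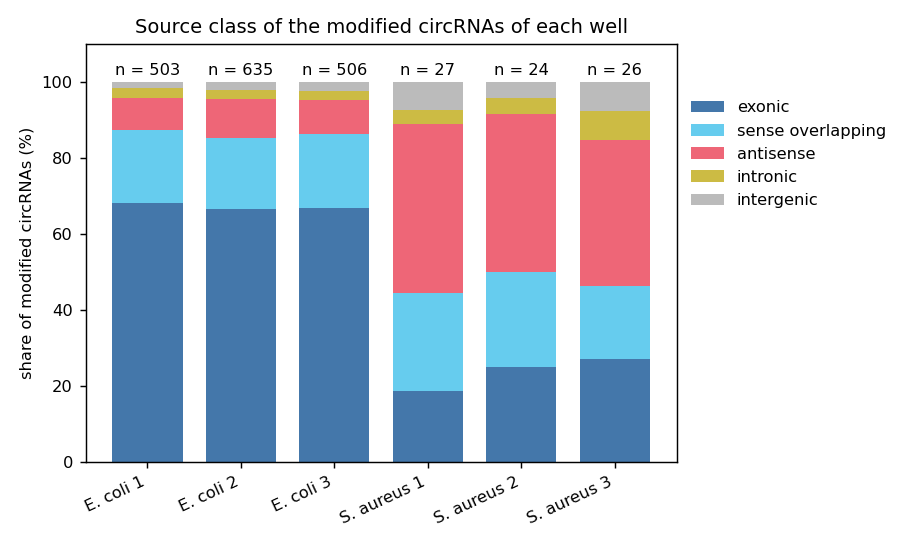
Share of the modified circRNAs of each well by source class, in percent, with the number of modified circRNAs (n) above each bar (*E. coli* wells left, *S. aureus* wells right). Exonic circRNAs fill 66.6 to 68.2% of the *E. coli* bars and 18.5 to 26.9% of the *S. aureus* bars, and antisense circRNAs fill 8.55 to 10.2% and 38.5 to 44.4%.

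In absolute numbers every class was larger in the *E. coli* wells, so the shares describe how unequal the gap was. There were 343, 423 and 338 modified exonic circRNAs in the *E. coli* wells, against 5, 6 and 7 in the *S. aureus* wells (61.3-fold). There were 43, 65 and 46 modified antisense circRNAs in the *E. coli* wells, against 12, 10 and 10 in the *S. aureus* wells (4.81-fold). Of the 348 antisense circRNAs in the whole junction table, 27 (7.76%) carried a merged peak called in all 3 *E. coli* wells and in no *S. aureus* well. A merged peak called in any *S. aureus* well was on 13 (3.74%). A circRNA with several merged peaks can be in both counts, unlike in the counts by whole circRNA above. Of the 2660 exonic circRNAs, the same counts were 249 (9.36%) and 8 (0.301%). Because the median score was higher in the *S. aureus* wells, the classes were also compared over the 27 peaks of highest score of every well, an alternative added after the data were seen. It kept all or nearly all peaks of the *S. aureus* wells (29, 27 and 28) but only the top few of the *E. coli* wells (653, 857 and 645). Scores have a ceiling, and 14, 34 and 19 peaks of the *E. coli* wells had a score of at least 3100, so that in *E. coli* well 2 all of the 27 were taken from ties by their fold enrichment. The antisense share was then 19.2, 18.5 and 24.0% in the *E. coli* wells and 48.0, 41.7 and 40% in the *S. aureus* wells. The exonic share was 42.3, 59.3 and 52.0% in the *E. coli* wells and 20, 25 and 28% in the *S. aureus* wells. With that choice of peaks the groups did not overlap in either class, and the antisense share was 22.6 percentage points lower in the *E. coli* wells, against 32.2 with all peaks.

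The modified circRNAs of the *E. coli* wells were longer. Their median length was 1056, 960 and 1046 nt in the *E. coli* wells, against 829, 683 and 732 nt in the *S. aureus* wells (exact p = 0.1, adjusted p = 0.13). The median width of a peak was 325, 281 and 380 nt in the *E. coli* wells, against 424, 422 and 419 nt in the *S. aureus* wells (exact p = 0.1, adjusted p = 0.13). The width difference turned round among peaks with a score of at least 190.6, the median of all peaks, with means of 497 nt in the *E. coli* wells and 405 nt in the *S. aureus* wells. Peaks that covered a circRNA from end to end made up 19.0 to 21.2% in the *E. coli* wells and 33.3 to 35.7% in the *S. aureus* wells. Over the 27 peaks of highest score of every well this order turned round. The share was then 51.9, 44.4 and 48.1% in the *E. coli* wells, against 37.0, 33.3 and 33.3% in the *S. aureus* wells. The median fold enrichment was 31.4, 32.4 and 36.9 in the *E. coli* wells, against 34.7, 44.0 and 56.8 in the *S. aureus* wells, and these ranges overlapped (exact p = 0.2, adjusted p = 0.217). A junction read in the input of the same well was found for 70 of 503 (13.9%, exact 95% interval 11.01 to 17.3%), 88 of 635 (13.9%, 11.3 to 16.8%) and 57 of 506 (11.3%, 8.64 to 14.3%) modified circRNAs of the *E. coli* wells. In the *S. aureus* wells it was found for 2 of 27 (7.41%, 0.91 to 24.3%), 0 of 24 (0%, 0 to 14.2%) and 6 of 26 (23.1%, 8.97 to 43.6%). The intervals cover counting error only, and the groups overlapped (exact p = 0.7).

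Only 11 merged peaks (1.07%) were called in all 6 wells, and none differed in fold enrichment past the threshold. In a limma fit of log2 fold enrichment over these 11 peaks, 0 had an adjusted p under 0.05 and 1 an unadjusted p under 0.05. Fold enrichment was on average lower in the *E. coli* wells at 8 of the 11 peaks and higher at 3, with a median difference of -0.29 on the log2 scale. It was lower in every *E. coli* well than in every *S. aureus* well at 5 (45.5%) and higher in every *E. coli* well at 0. With each well centred on the median of all its peaks the count turned to 3 lower and 8 higher, and the median difference to 0.11. On simulated data with a spread common to all peaks the fit recovered 81.5% of 2-fold changes. That spread was set somewhat too small, since it did not allow for the fitting of both group means, so the recovery is likely overstated. The SE of the real peaks differed, from 0.20 (HSPA1A) to 0.46 (the intergenic peak on chromosome 1). Differences of 2-fold as well as smaller ones could therefore be missed.

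SREK1, a splicing factor with an arginine and serine rich domain, had the strongest shared peak (chromosome 20, 13451630 to 13453909, minus strand, on a sense overlapping circRNA of 26723 nt). Its fold enrichment was 210.83, 290.31 and 358.65 in the *E. coli* wells, against 292.18, 163.88 and 277.83 in the *S. aureus* wells. The groups overlapped, and the log2 difference was 0.24 ± 0.30 (SE, 95% interval -0.45 to 0.93, limma adjusted p = 0.571). The called stretch was 1697 to 2226 nt in the *E. coli* wells and 795 to 844 nt in the *S. aureus* wells. TCHH, trichohyalin of the hair follicle, had 105.34, 115.31 and 136.40 in the *E. coli* wells, against 90.71, 191.25 and 152.71 in the *S. aureus* wells. PRPF38B, a factor of the spliceosome, had 87.81, 99.04 and 88.99 in the *E. coli* wells, against 108.91, 112.03 and 202.25 in the *S. aureus* wells. All *E. coli* values of PRPF38B lay below all *S. aureus* values, with a log2 difference of -0.56 ± 0.28 (SE, interval -1.19 to 0.07, limma adjusted p = 0.287).

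Shared peaks on antisense circRNAs included those of HSPA1A, JUNB and ANXA8L1. The circRNA antisense to HSPA1A, the inducible Hsp70 chaperone, had 52.49, 60.05 and 65.66 in the *E. coli* wells, against 76.44, 70.36 and 74.60 in the *S. aureus* wells, without overlap. The circRNA antisense to JUNB, a subunit of the AP-1 transcription factor, had 53.02, 46.90 and 91.90 in the *E. coli* wells, against 38.85, 60.23 and 51.15 in the *S. aureus* wells. The groups overlapped at JUNB. The circRNA antisense to ANXA8L1, a protein of the annexin family, had 26.20, 32.01 and 26.70 in the *E. coli* wells, against 34.74, 32.15 and 36.51 in the *S. aureus* wells, where the nearest values differ by little. The limma adjusted p of these 3 peaks ranged from 0.400 to 0.526.

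LOC101907920, which the RefSeq gene table (ARS-UCD2.0) lists as a long noncoding RNA, had the smallest p of the shared peaks. Its intronic peak had 40.46, 41.73 and 40.45 in the *E. coli* wells, against 49.75, 62.36 and 82.20 in the *S. aureus* wells, a log2 difference of -0.63 ± 0.24 (SE, interval -1.17 to -0.10, limma unadjusted p = 0.026, limma adjusted p = 0.286). The called stretch differed here too, being 724 nt in each *E. coli* well and 65 to 67 nt in the *S. aureus* wells. DSP, desmoplakin of the desmosome, had 56.47, 66.78 and 46.39 in the *E. coli* wells, against 53.77, 65.06 and 63.53 in the *S. aureus* wells, on an exonic circRNA of 2442 nt. RRBP1, a ribosome receptor of the endoplasmic reticulum, had 17.45, 26.23 and 33.70 in the *E. coli* wells, against 25.33, 28.36 and 42.43 in the *S. aureus* wells. The intergenic peak on chromosome 1 (6042916 to 6043070) had 44.58, 48.63 and 105.14 in the *E. coli* wells, against 42.60, 43.96 and 115.82 in the *S. aureus* wells, so that well 3 was the highest in both groups. All 11 shared peaks overlapped peaks of all 3 control wells, and 8 of them (72.7%) covered their whole circRNA, against 192 of all 1031 merged peaks (18.6%).

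**Figure D3:**
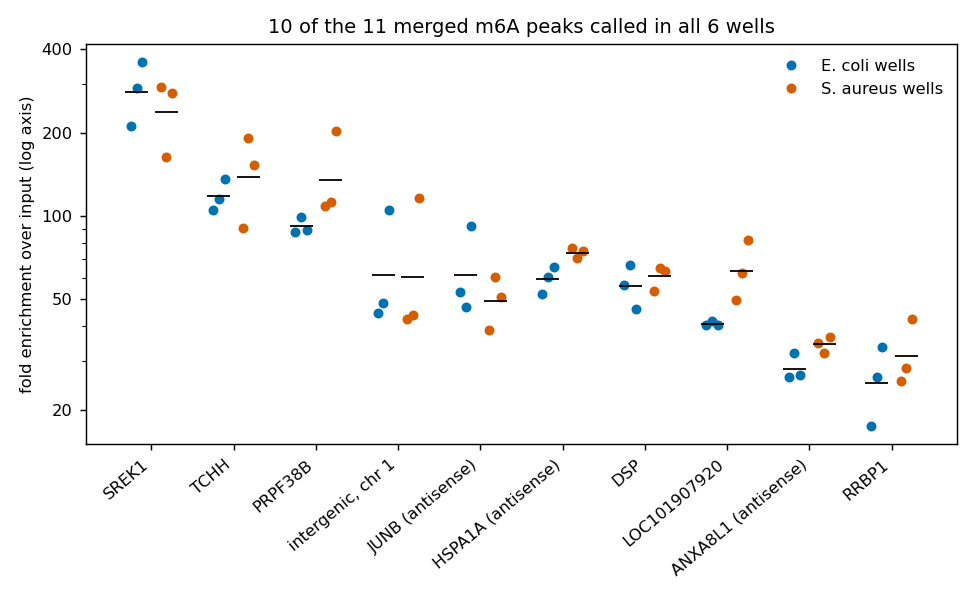
Fold enrichment over input, on a log axis, at 10 of the 11 merged peaks called in all 6 wells. Points are wells (*E. coli* left, *S. aureus* right at each gene) and bars are geometric means. SREK1 is the highest in both groups, and at PRPF38B, HSPA1A, LOC101907920 and ANXA8L1 all *E. coli* points lie below all *S. aureus* points.

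The peaks of the *E. coli* wells that lay at a place called in an *S. aureus* well were higher in fold enrichment and in score than the other peaks of these wells. There were 19, 21 and 16 of them in the *E. coli* wells, with a median fold enrichment of 44.6, 46.9 and 49.2, against 31.0, 32.3 and 36.3 for the other peaks of the same wells. The SREK1 peak, described above, was the highest of its well by fold enrichment in *E. coli* wells 1 and 3, yet among the 28 peaks with the largest fold enrichment of each *E. coli* well only 4, 2 and 2 lay at such a place. Among those at the score ceiling of at least 3100, 10 of 14, 12 of 34 and 10 of 19 did. The strongest peaks of MAP4K4 and ARID1A had higher fold enrichments in *E. coli* wells than most shared peaks. They had been picked above among peaks not called in any *S. aureus* well.

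The 36 merged peaks called in any *S. aureus* well were on 33 circRNAs of 30 host genes, and 13 of them (36.1%) were antisense, against 78 of all 1031 (7.57%). Among the hosts of the 13 were FN1, YBX3, JUNB, CD44, CTNND1, ACTG1, HMGA1, HSPA1A, SOX4, ANXA8L1 and LOC104976804. Of these 13 peaks, 6 were called in all 3 *E. coli* wells, 3 in 1 or 2 *E. coli* wells and 4 in no *E. coli* well. FN1 is fibronectin, CD44 a hyaluronan receptor, CTNND1 p120 catenin and ACTG1 cytoplasmic gamma actin. In human, JUNB, HSPA1A and SOX4 are genes without introns. YBX3, an RNA-binding cold shock protein, had 45.58, 46.04 and 51.91 in the *E. coli* wells and 47.29 in 1 *S. aureus* well. SOX4, a transcription factor, had 28.85, 54.58 and 43.74 in the *E. coli* wells and 58.34 and 71.76 in 2 *S. aureus* wells.

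Exactly 3 merged peaks were called in all 3 *S. aureus* wells and in no *E. coli* well, and none of them overlapped a control peak. The count was 5 without *E. coli* well 1, *E. coli* well 2 or *S. aureus* well 2. All 3 were on chromosome 29, which held 25 of the 1031 merged peaks. LOC104976804 carried the strongest, on an antisense circRNA of 642 nt (43614516 to 43614928, minus strand), with fold enrichments of 27.18, 35.22 and 50.92. APLP2, a relative of the amyloid precursor protein, had 24.79, 24.53 and 27.43 on an exonic circRNA of 829 nt (36304037 to 36304233, plus strand). PRSS23, a secreted serine protease, had 14.25, 18.56 and 16.55 on a circRNA of 334 nt that the peak covered whole (8736735 to 8737068, minus strand). LOC104976804 varied more between the *S. aureus* wells than APLP2 and PRSS23, and the fold enrichments of all 3 peaks were below the median of their wells.

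APLP2 carried peaks of both groups at different places of the same circRNA. The *E. coli* wells had 37.97, 34.83 and 37.22 at 36304816 to 36305036, which lies downstream of the *S. aureus* peak and was called in no *S. aureus* well. This *E. coli* peak was also called in all 3 control wells, while the *S. aureus* peak was called in none. Other host genes with peaks of both groups at separate places were ANXA8L1, DSP, FN1, LMO7, PLEC, SREK1 and TNS4. SREK1 had a peak in all 6 wells and 3 further peaks in all 3 *E. coli* wells and no *S. aureus* well, of which the strongest beside it had 98.89, 90.83 and 98.35. DSP had 2 further peaks of that kind, with 32.07, 31.77 and 38.96 and with 22.18, 30.83 and 30.89. PLEC, the cytolinker plectin, had 23.89, 73.34 and 82.98 in the *E. coli* wells and 62.37 in 1 *S. aureus* well at a shared place. A second PLEC place was called in *S. aureus* well 1 alone, at 49.20. LMO7, a protein of adherens junctions, had 91.09 in *E. coli* well 1 and no peak in the other *E. coli* wells, against 105.10, 80.78 and 93.26 in the *S. aureus* wells.

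TNS4, a tensin that binds the tails of beta integrins, had 3 places called with both bacteria, with higher fold enrichments in the *S. aureus* wells. All its peaks were on 1 exonic circRNA of 1588 nt on chromosome 19. The place at 40709399 to 40709822 had 37.39 and 52.55 in *E. coli* wells 1 and 2, against 56.51, 75.93 and 82.58 in the *S. aureus* wells. The place at 40707892 to 40708313 had 29.17 in *E. coli* well 1, against 46.01, 85.03 and 70.94 in the *S. aureus* wells. The place at 40716048 to 40716576 had 37.73 in *E. coli* well 2, against 64.15 and 72.20 in *S. aureus* wells 2 and 3. At each of these 3 places every *S. aureus* value lay above every *E. coli* value, *E. coli* well 3 had no peak, and no control well had one. Only the first had at least 2 wells of each group and could be fitted, without *E. coli* well 3, and its limma adjusted p was 0.233. Another place, at 40704871 to 40704996, had 23.46 in *E. coli* well 2 and no peak in any *S. aureus* well. The circRNA had 1 junction read over the *E. coli* inputs and 0 over the *S. aureus* inputs, so its level could not be compared.

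The 3 TNS4 peaks belong to 6 merged peaks that were called with both bacteria and in no control well. The others were antisense to FN1, CD44 and HMGA1. The FN1 peak had 18.11 and 19.47 in *E. coli* wells 2 and 3, against 21.95, 17.34 and 24.29 in the *S. aureus* wells, which overlap. The CD44 peak had 25.92 in *E. coli* well 2, against 21.63, 27.17 and 27.48 in the *S. aureus* wells. The HMGA1 peak, on a circRNA of 160 nt antisense to this architectural chromatin protein, had 23.47 in *E. coli* well 2, against 23.96, 29.89 and 39.41 in the *S. aureus* wells. All 3 were seen in *E. coli* well 2, the well with the most peaks. Of the 36 merged peaks of the *S. aureus* wells, 18 (50%) were called in no control well. The other 18 (50%) overlapped a control peak, against 938 of all 1031 merged peaks (91.0%).

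**Figure D4:**
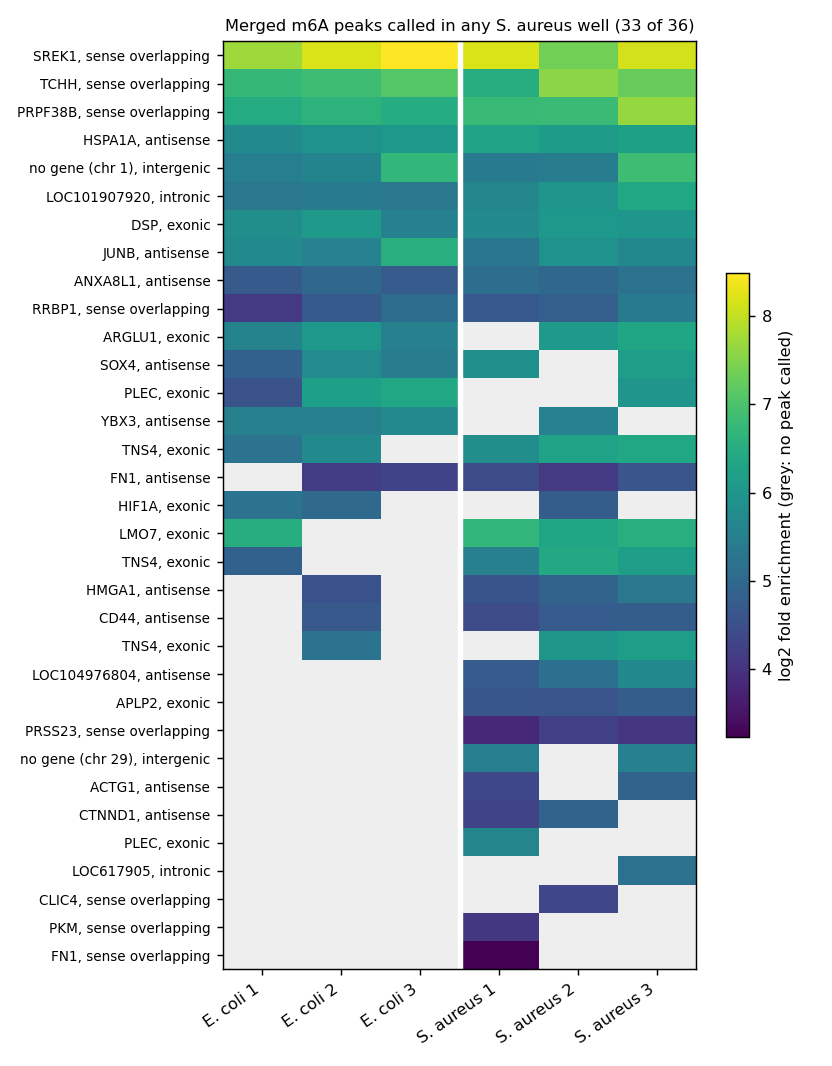
Merged peaks called in any *S. aureus* well (33 of the 36), by host gene and source class (rows), with log2 fold enrichment per well as colour (*E. coli* columns left, *S. aureus* columns right, grey where no peak was called). The upper 10 rows are filled in all 6 wells, the lower 11 rows are grey in all *E. coli* wells, and the TNS4 rows are brighter in the *S. aureus* columns.

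The other 10 merged peaks called in *S. aureus* wells alone were seen in 1 or 2 of them. CTNND1 had 19.66 and 30.42 and ACTG1 had 20.61 and 30.19, both antisense. An intergenic place on chromosome 29 had 44.72 and 45.76, and it was the only one of the 13 merged peaks without an *E. coli* call that was called in control wells. Those seen in 1 *S. aureus* well included FN1 (sense overlapping), CLIC4, PKM, PLEC and LOC617905, with fold enrichments of 9.34 to 49.20. HIF1A, the oxygen-regulated transcription factor, had 37.44 and 33.19 in *E. coli* wells 1 and 2 and 27.23 in *S. aureus* well 2. ARGLU1, a splicing cofactor, had 47.53, 65.21 and 45.86 in the *E. coli* wells, against 66.89 and 79.34 in *S. aureus* wells 2 and 3.

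Grouped by function, 4 lists held more than 1 merged peak called in *S. aureus* wells, beside 36 of all 1031 merged peaks (3.49%). They were matrix and focal adhesion (7 of 23), epithelial junctions (4 of 21), splicing (3 of 21) and stress (2 of 5). Of the 16 gene lists with a peak, 10 had none in an *S. aureus* well, on 7 to 75 merged peaks each. Against 42.7% of all merged peaks called in all 3 *E. coli* wells and no *S. aureus* well and 3.49% called in any *S. aureus* well, the counts per list were as follows. The lists are descriptions, since some members were chosen with earlier results known. Among chromatin regulators, 34 of 75 merged peaks (45.3%) were of the first kind and 0 of the second. BRD1, a histone acetyltransferase scaffold, had 30.26, 187.15 and 50.83. Among genes of DNA repair and mitosis the counts were 18 of 38 (47.4%) and 0. SLX4, a scaffold of structure-specific nucleases, had 38.49, 65.37 and 56.58. Both lists were near the share of all merged peaks in the first kind.

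The m6A machinery itself carried peaks. Of 16 merged peaks on its writers, erasers and readers, 9 (56.3%) were called in all 3 *E. coli* wells and no *S. aureus* well, and 0 were called in an *S. aureus* well. YTHDC1, the nuclear reader, had 102.11, 106.18 and 78.06. ZC3H13, a writer subunit, had 4 such peaks, the strongest with 54.23, 114.08 and 45.12. A circRNA antisense to CBLL1, another writer subunit, had 42.00, 61.87 and 54.15. These 3 genes were the strongest of the list among peaks called in all 3 *E. coli* wells. Over all merged peaks of the list, PRRC2B reached a mean *E. coli* fold enrichment of 65.22, above CBLL1 at 52.67. The median of that mean over the list was 30.8, against 32.2 for all merged peaks. Among genes of mRNA decay and miRNA silencing 8 of 18 merged peaks (44.4%) were of this kind. Among splicing genes 10 of 21 (47.6%) were, and 3 of 21 (14.3%) were called in an *S. aureus* well, those of SREK1, PRPF38B and ARGLU1. ACIN1, a splicing factor cleaved in apoptosis, had 61.72, 76.30 and 85.00 in the *E. coli* wells alone.

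Lists of signalling genes differed in both directions from the share of all merged peaks, on few peaks each. In the Hippo pathway 9 of 12 merged peaks (75.0%) were called in all 3 *E. coli* wells and no *S. aureus* well, among them AMOTL1, an angiomotin that binds YAP1, with 63.70, 92.42 and 76.50. PTPN14, a phosphatase that binds YAP1, had an antisense peak with 39.69, 116.54 and 57.61. In BMP, TGF-beta and SMAD signalling 5 of 7 (71.4%) were, among them SKI, a SMAD corepressor, with 26.52, 58.41 and 65.96. Among ubiquitin ligases and deubiquitinases 9 of 12 (75.0%) were, among them the ligase TRIP12 with 38.63, 44.73 and 60.43. Among apoptosis and autophagy genes 7 of 12 (58.3%) were, among them the transcription factor FOXO3 with 39.02, 81.47 and 73.24. In the MAP kinase cascade 4 of 16 (25%) were, and among actin assembly genes 9 of 26 (34.6%). None of these lists had a peak in an *S. aureus* well. In NF-kB, Toll-like receptor and cytokine signalling 2 of 6 merged peaks (33.3%) were, those of the death receptor TNFRSF21 (48.22, 46.25 and 48.84) and of TAB3, an adaptor of the TAK1 kinase (18.53, 29.81 and 23.28). The 1 *S. aureus* call of that list was the CD44 peak.

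In genes of matrix, integrins and focal adhesion, 4 of 23 merged peaks (17.4%) were called in all 3 *E. coli* wells and no *S. aureus* well, and 7 (30.4%) in an *S. aureus* well, most of them on CD44, FN1 and TNS4. LAMC1, a laminin chain, held 3 of the 4, the strongest with 17.22, 24.49 and 54.02. In genes of epithelial junctions and cytolinkers the counts were 10 of 21 (47.6%) and 4 of 21 (19.0%), on CTNND1, DSP and PLEC. Among stress and immediate early genes they were 1 of 5 (20%) and 2 of 5 (40%), on HSPA1A and JUNB. Several of these calls come from 1 circRNA, as for TNS4, and are not separate observations. The markers of cell types were few among circRNA hosts. Of 26 epithelial and mammary markers 5 were hosts in the junction table and 2 had a peak (CDH3 among them), of 23 fibroblast markers 1 was a host with 0 peaks, and of 20 leukocyte markers 0 were hosts, so that the label of the cells could hardly be checked from circRNAs.

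**Figure D5:**
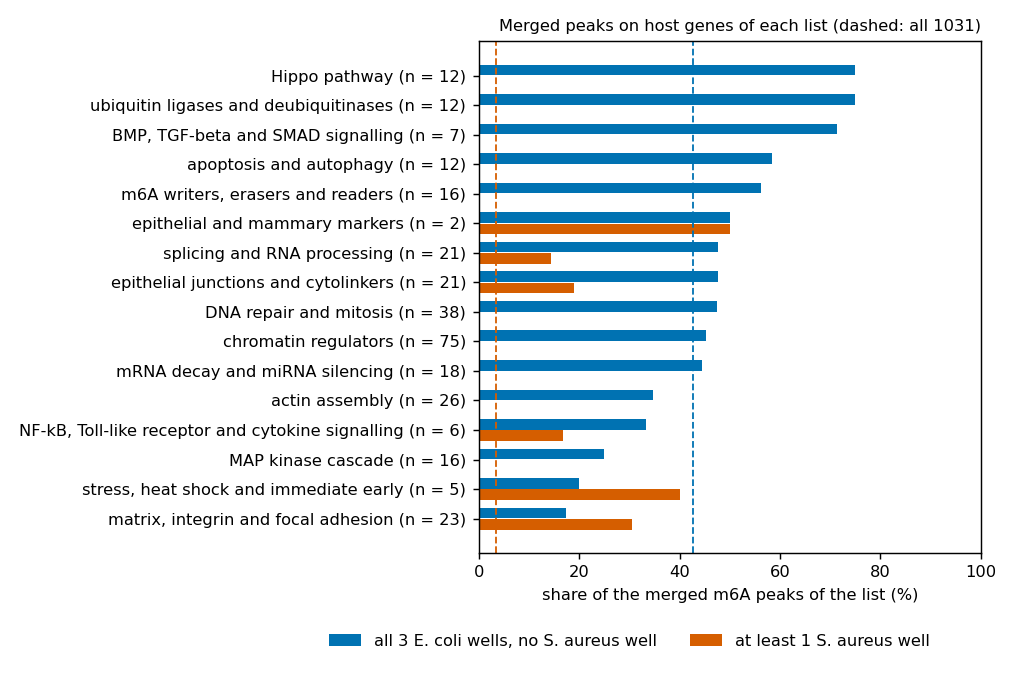
Share of the merged peaks of each gene list, in percent, that were called in all 3 *E. coli* wells and no *S. aureus* well (upper bars) or in at least 1 *S. aureus* well (lower bars). Dashed lines mark the shares over all 1031 merged peaks, 42.7% and 3.49%, and n is the number of merged peaks of a list. The lower bars exceed the upper ones only for the list of matrix, integrin and focal adhesion (30.4% and 17.4%) and that of stress genes (40% and 20%).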

How the data were processed

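Reads had been trimmed by the authors (cutadapt 1.9.3) and mapped to bosTau9 (STAR 2.5.1b), circRNAs came from DCC, and edgeR 3.16.5 was used for normalization. The authors deposited junction counts per input library with normalized log2 values, which were not used in tests. For the peaks of each IP library the deposited values are a ratio (fold enrichment), the score of the peak and the percent false discovery rate. Peak names point to MACS, whose version and use of strand are not given in the sources used here, and peaks were called per library.

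Positions are counted from 1. Peaks were merged in Python 3.11.15 over the 6 wells, taking the highest fold enrichment where a well had several. Wells were compared by exact two-sided permutation tests over 13 measures, and shared peaks with limma 3.58.1 (R 4.3.3) on log2 fold enrichment. Merging and fit were tested on simulated data. No wells were identical.

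Members, measures and the 18 gene lists were chosen with earlier results of these data known. Named peaks were those in all 6 wells, those in *S. aureus* wells alone, the 12 strongest and the 6 hosts with most peaks among those in all *E. coli* wells alone, hosts with peaks of both groups at separate places, up to 3 per list and the strongest per class. The other peaks of *S. aureus* wells and those absent from control wells were named after their values were seen. Of 2220 host symbols, 2130 were found in the RefSeq gene table. Some peaks that these rules name are not reported here, and counts include them.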

Additional observations from a re-analysis of the deposited data

How the results depend on the processing

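Directions of the 13 measures per well held under a fold enrichment of at least 20, under a score of at least 190.6, the median of all peaks, and with each well left out, with these exceptions. The median peak width turned to 92.0 nt wider in *E. coli* wells under the score limit, and to 122 nt wider over the 27 peaks of highest score per well. Over those 27 peaks the median fold enrichment turned to 34.97 higher in *E. coli* wells and the sense overlapping share to 2.76 percentage points higher, where ties at the score ceiling were broken by fold enrichment, so these values partly follow from that choice. The share of modified circRNAs with a junction read ranged from -2.23 to 9.31 percentage points (*E. coli* minus *S. aureus*) with 1 well left out, its sign turning without *S. aureus* well 2. The peaks per well differed 26.3-fold per clean IP read, 11.6-fold per circRNA with a junction read, 13.4-fold under the score limit and 930-fold by the highest serial number. A false discovery rate of at most 20% left 658 and 5.67 peaks per well (116-fold), and since that rate grew with the score it kept the weaker peaks.

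The 440 merged peaks of all *E. coli* wells and no *S. aureus* well became 663 with at least 2 wells of a group, 196 of 507 under the score limit, and 440 to 543 with 1 well left out. The 3 of the reverse kind became 6 with at least 2 wells and 3 to 5 with 1 well left out (5 without *E. coli* well 1, *E. coli* well 2 or *S. aureus* well 2). Merging at 50% overlap or without strand changed no count by over 1.5 times. At shared peaks no fit gave an adjusted p under 0.05, the median log2 difference ranged from -0.39 to -0.15 with 1 well left out, and centring on the well medians turned it to 0.11. Replicate numbers showed no clear pairing of the wells. Across the 11 shared peaks, deviations from the group mean correlated at -0.05, -0.08 and 0.44 between same-numbered wells. Between wells of different numbers these correlations ran from -0.44 to 0.47. The replicate block left the per-well differences as they were with 690.3 more peaks per *E. coli* well and an exact sign-flip p of 0.25, the smallest possible, and at shared peaks its smallest adjusted p was 0.138. Motifs in peaks were not run, because no genome of the build was at hand. With 3 wells a group no per-well test can pass 0.05.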
